A study of Mus musculus with 5 samples.

Results

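The regions described here are stretches of the mouse genome that carried elongating RNA polymerase II in wild-type Th2 cells and that lay more than 5 kb from the start-to-end span of every gene in the deposited gene table. They are called far intervals below. A far interval was called shared when it overlapped, by at least 1 bp, an interval of each of the other 3 libraries, and not shared otherwise. Of the 11692 intervals of the wild-type library, 857 were far, and these held 337 shared and 520 not shared intervals. The regions were chosen by the positions of the measured intervals and divided by their overlap between libraries, so the overlap counts and heights below are a description.

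The study compared Th2 cells from Parp14+/+ and Parp14-/- mice, each cultured with and without PJ34, an inhibitor of ADP-ribosyltransferases. Naive CD4+ T cells came from spleens of C57BL6 mice and of Parp14-/- mice on that background, and were differentiated with 10 ng/ml IL-4 over 3 days of activation and 4 days of expansion. Chromatin was immunoprecipitated with an antibody to RNA polymerase II phosphorylated at serine 2 of its tail repeat. The labels give the PJ34 dose as 10 µM, and the study's methods give another dose. The 4 groups were Parp14+/+ cells, Parp14+/+ cells with PJ34, Parp14-/- cells and Parp14-/- cells with PJ34. Each was 1 library, so no difference between conditions has a replicate check and no test was made. The sources used here do not say how many animals gave the cells of a library. The authors reduced the libraries to equal numbers of alignments, and the height of an interval is the number of fragments that overlap at its highest point. An interval lay at all 6 T cell markers and all 4 Th2 markers in wild-type cells, and at 0 of 4 B cell, 1 of 4 myeloid and 0 of 2 CD8 markers. In the other libraries, 4 to 5 of the T cell markers and 3 to 4 of the Th2 markers had an interval, against 0 to 1 of the B cell and 0 to 1 of the myeloid markers. The B cell marker was Cd79a, with a height of 36 in Parp14+/+ with PJ34. In that library the tallest T cell marker, Cd3d, reached 22 and the Th2 marker Gata3 reached 58.

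RNA polymerase II that is phosphorylated at serine 2 marks transcription past the early part of a gene, and the mark usually rises toward and beyond the 3′ end of transcribed genes. Polymerase is also found away from protein-coding genes, at long noncoding RNAs, at enhancers that are themselves transcribed, and at the short genes of the U1, U2, U4 and U5 small nuclear RNAs of the splicing machinery. Those small RNA genes, and that of U3, a small nucleolar RNA used in ribosomal RNA processing, are not polyadenylated. Their 3′ ends form with the help of a short element downstream called the 3′ box.

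Of the 10 shared far intervals with the highest wild-type values, 7 lay over such genes. The sequences below, from the NCBIM37 assembly (mm9), show a U1, a U2 and a U3 gene in the direction of transcription together with the 40 bases that follow it. The capitals mark the 3′ box letters, searched as GTTT, up to 3 further bases, and AAANNNAGA on the strand of the gene. This search was chosen after the sequences had been seen.
U1, chr11:87236369-87236572, + strand: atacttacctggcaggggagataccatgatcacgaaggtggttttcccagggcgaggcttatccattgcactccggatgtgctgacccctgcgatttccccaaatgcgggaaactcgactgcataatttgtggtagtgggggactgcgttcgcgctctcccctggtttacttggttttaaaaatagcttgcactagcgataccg
U2, chr11:101519552-101519782, + strand: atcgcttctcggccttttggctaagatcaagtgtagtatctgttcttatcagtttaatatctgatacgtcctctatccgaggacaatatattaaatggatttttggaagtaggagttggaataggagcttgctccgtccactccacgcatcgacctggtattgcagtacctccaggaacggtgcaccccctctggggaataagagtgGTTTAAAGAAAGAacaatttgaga
U3, chr11:87256739-87256992, + strand: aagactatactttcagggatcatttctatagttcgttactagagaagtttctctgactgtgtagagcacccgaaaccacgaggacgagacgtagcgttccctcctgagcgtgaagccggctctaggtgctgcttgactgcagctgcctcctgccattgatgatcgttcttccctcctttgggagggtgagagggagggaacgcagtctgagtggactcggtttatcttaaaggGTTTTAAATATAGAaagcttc

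Among the genes of GENCODE vM1, 16 counted here as U1, U2, U3 or U5 lay under far intervals, 13 of them under shared ones. AC120136.1 and AC120136.2 are not named U2 there but were counted as U2. They matched the U2 genes on chromosome 11 at 189 and 190 of 191 bases. The letters of the 3′ box followed 6 of the 16 genes. Of 40-bp windows centred on the highest points of all wild-type intervals, 0.0941% held them on either strand. Those windows differ from the flanks in place and strand, and the letters were chosen after the flanks had been seen. The figures are therefore not a test. The highest point of the wild-type interval lay past the 3′ end of the gene at 11 of the 16 genes and no more than 60 bp past it at 9. At the first U1 gene shown it lay 13 bp past the end, at the U3 gene 9 bp and at the U2 gene 35 bp.

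Many of these genes are copies of each other. The 4 U3 genes on chromosome 11 were identical over 214 bases and the neighbouring 2 U1 genes over 164 bases. None of the 129 words of 36 bases in either U1 gene, and none of the 179 in any of the U3 genes, occurred once in the genome, whereas 37 to 38 of the 40 words reaching past the end of these U1 genes did. Past the U3 genes the number was 36 at 2 genes and 15 at the other 2, and it was 0 past the U1 gene on chromosome 12 and past the U2 gene of chr11:101506201-101507400. The reads were 36 bases long and were kept where they mapped to 1 place, so a read wholly within such a gene has no single place to map to. In all, 9 of the 16 genes held no word found once. The part of this in the position and height of the points was not tested, and heights at such copies are uncertain. The flanks of the 4 U3 genes are shown to let the copies be told apart, with the same letters in capitals.
U3, flank at chr11:87256953-87256992: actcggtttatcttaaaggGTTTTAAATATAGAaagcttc
U3, flank at chr11:87262343-87262382: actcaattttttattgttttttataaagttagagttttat
U3, flank at chr11:87276002-87276041: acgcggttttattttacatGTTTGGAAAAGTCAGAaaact
U3, flank at chr11:87285084-87285123: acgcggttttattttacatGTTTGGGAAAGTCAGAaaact

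The U1 and U3 genes formed 1 dense group of 6 shared far intervals within chr11:87234451-87285900. All 6 lay inside the annotated span of Tex14, a gene known for its role in germ cells, with their highest points in its introns. The nearest listed gene was Rad51c, which encodes a protein of DNA repair, 16509 bp from the group. The first U1 interval, chr11:87234451-87237300, reached a height of 53 in Parp14+/+, 55 in Parp14+/+ with PJ34, 67 in Parp14-/- and 73 in Parp14-/- with PJ34. The second, chr11:87238801-87241200, reached 52, 51, 65 and 78 in the same order. At both, the 2 knockout libraries stood above the 2 wild-type libraries. The ratio of Parp14+/+ to Parp14-/- was 0.791 (95% interval 0.541 to 1.15) at the first and 0.800 (0.545 to 1.17) at the second, and with PJ34 in both genotypes it was 0.753 (0.521 to 1.08) and 0.654 (0.450 to 0.943). These intervals take the heights as counts and cover counting error alone.

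The U3 intervals showed no common order of the libraries. The tallest of them in wild-type cells, chr11:87261451-87262950, reached 48, 36, 34 and 40 in the order above. The next, chr11:87255901-87257400, reached 38, 32, 41 and 52, so the wild-type library was the highest at the one and not at the other. The remaining pair had 29, 36, 31 and 34 at chr11:87274501-87277050 and 28, 23, 33 and 36 at chr11:87283501-87285900.

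The U5 and U2 genes lay in smaller groups. A pair of U5 intervals lay together on chromosome 9, 91751 to 97301 bp upstream of Clpx, which encodes a mitochondrial protease subunit. The one at chr9:65043451-65044800 reached 52, 67, 59 and 61, and the one at chr9:65047651-65050350 reached 41, 55, 44 and 38. Wild-type cells with PJ34 had the highest value at both. On chromosome 4 a shared U5 interval, chr4:116862001-116863200, reached 44, 49, 51 and 52, and its neighbour over a second U5 gene, chr4:116874451-116875500, had 18, 14 and 10 and no interval in Parp14-/- with PJ34, so it was not shared. The taller of the U2 intervals on chromosome 11, chr11:101518801-101520750, reached 34, 33, 40 and 49. The interval chr1:72290101-72291750, over AC120136.1, instead had its higher values in the 2 wild-type libraries, at 21 and 24 against 15 and 16. Genes for small nuclear RNAs lay under 14 far intervals, or 1.63% of them, against 0.727% of all wild-type intervals, and small nucleolar RNA genes under 5 (0.583% against 1.38%). The 2 genes named U6, whose family is mostly transcribed by RNA polymerase III, had their highest points 740 bp past and 3150 bp before the end.

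**Figure D1:**
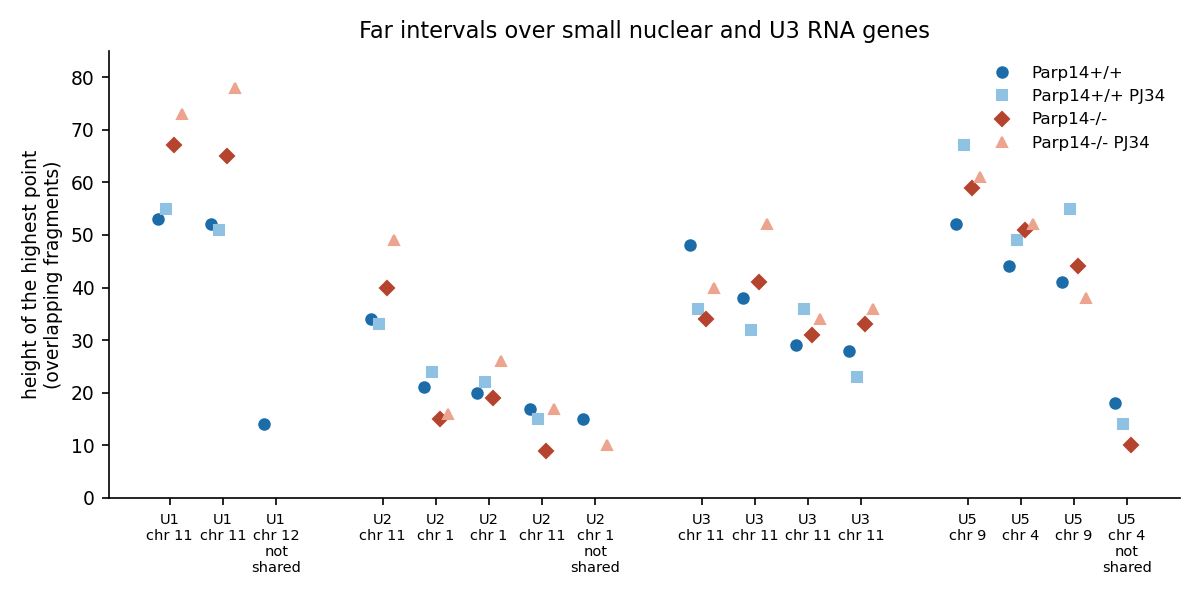
Height of the highest point (overlapping fragments, linear axis) of the 16 far intervals over U1, U2, U3 and U5 genes, with 1 marker for each of the 4 libraries, ordered by wild-type height within each kind of gene. The knockout markers lie above the wild-type ones at the 2 tall U1 intervals, and a library without an interval has no marker.

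Across all far intervals, polymerase heights were low. In shared far intervals the median height was 11 in Parp14+/+, 12 in Parp14+/+ with PJ34, 13 in Parp14-/- and 11 in Parp14-/- with PJ34. The highest values with a point inside the wild-type interval were 53, 67, 84 and 78. In wild-type cells 44 of the 337 reached a height of 20, against 3 of the 520 not shared, whose median was 8 and whose highest value was 41. Shared intervals near listed genes had a wild-type median of 11 as well, but reached 172.

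**Figure D2:**
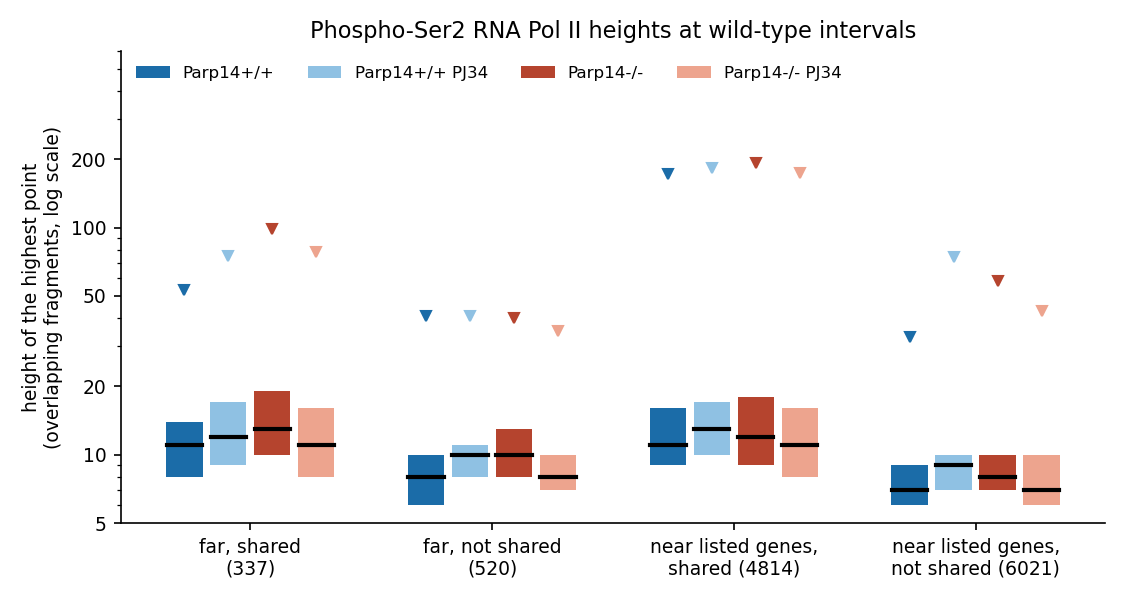
Height of the highest point (overlapping fragments, log axis) at far intervals and at intervals near listed genes, each shared or not. Bars span the 25th to the 75th percentile, lines are medians and triangles the highest value of each library, over the wild-type intervals that overlap an interval of that library. The bars of far and near shared intervals overlap in every library, and the triangles of near shared intervals are the highest.

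The shared far intervals had a median length of 5400 bp and the not shared ones of 3000 bp, against 9150 and 3900 bp near listed genes. In all, far intervals covered 4.49 Mb. Overlap with another library rose with height: 14.8% of far intervals with a height of up to 6 were shared, 50.4% of those from 10 to 14, and 93.6% of the 47 at 20 or more. Near listed genes the shares were 12.2%, 64.2% and 97.0%. Length moved with height too, from a median of 2550 to 6450 bp between the lowest and the highest of these bands of far intervals, so the parts of height and length in the overlap cannot be told apart.

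Of the 857 far intervals, 337 were shared, which is 39.3% against 44.1% of all wild-type intervals. Parp14+/+ with PJ34 overlapped 558 of them (65.1%, against 69.9% of all), Parp14-/- 518 (60.4% against 61.2%) and Parp14-/- with PJ34 436 (50.9% against 54.7%). Among the 520 not shared, 176 (33.8%, against 34.5% of all 6541 not shared wild-type intervals) had no partner in any other library. A partner in Parp14+/+ with PJ34 alone was found for 114 (21.9% against 22.4%), in Parp14-/- alone for 50 (9.62% against 8.59%) and in Parp14-/- with PJ34 alone for 23 (4.42% against 4.13%). A further 81 (15.6% against 15.4%) were missing from Parp14-/- with PJ34 alone. Of the rest, 50 (9.62% against 6.54%) were missing from Parp14+/+ with PJ34 alone and 26 (5% against 8.36%) from Parp14-/- alone. These last shares differed more from those of all not shared wild-type intervals than the other shares of the 520 did.

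The distance from listed genes did not order the shares. Shared intervals made up 39.6% (95% exact binomial interval 33.0 to 46.6) of the 212 far intervals at 5 to 10 kb and 36.3% (27.4 to 45.9) of the 113 beyond 100 kb. The median distance was 22432 bp. The 3 intervals just above the limit lay 5024 bp from Alg12, 5049 bp from Cdyl2 and 5058 bp from Gm4984, with wild-type heights of 4, 8 and 8. Those just below it lay 4957 bp from Adat1, 4938 bp from D19Ertd737e and 4936 bp from Tube1, with heights of 6, 7 and 12.

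Distance from the table was not the same as distance from genes. In GENCODE vM1, 484 of the 857 (56.5%) lay more than 5 kb from every annotated gene, 239 (27.9%) overlapped a protein-coding gene, 47 another noncoding gene and 12 small RNA genes alone. Genes typed there as long intergenic noncoding RNA lay under 36 far intervals (4.20%, against 3.52% of all wild-type intervals). MicroRNA genes lay under 2 (0.233% against 0.915%). Of the 47 intervals at other noncoding genes 57.4% were shared, compared with 38.8% of the 484. The 47 included members of a cluster on chromosome 8, described below, in which 12 of 13 intervals were shared. The share without that cluster was not computed. Some rows of the table cover only part of a gene or leave it out. The far intervals over Usp34, which encodes a deubiquitinase, over the 5′ part of Dock2, which directs lymphocyte migration, and over Runx1, a transcription factor of blood cells, lay inside annotated genes in this way.

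GC content at the highest points was close to that of other intervals, whereas CpG-rich windows were fewer. In windows reaching 150 bases to each side of the highest point, the median GC content was 46.2% in shared far intervals, 45.5% in not shared ones and 46.2% in all wild-type intervals. Windows with more than 55% GC and a CpG observed-to-expected ratio above 0.65, which are typical of promoters of widely expressed genes, made up 5.64% (95% interval 3.43 to 8.66) of shared far intervals, 2.88% (1.62 to 4.71) of not shared ones and 10.1% of all. The letters AGATAA, a core of the sites of GATA factors, were in 17.8% (13.9 to 22.3) and 17.7% (14.5 to 21.2) of the shared and not shared windows and in 14.95% of all. TTCNNNGAA, which many STAT proteins prefer, was in 9.20% and 11.5% against 9.38% of all, and TTCNNNNGAA, which STAT6 prefers, in 7.72% and 10.8% against 8.34%. TATAAA was in 14.8% and 17.3% against 18.4%, and AATAAA, the poly(A) signal, in 27.9% and 25.8% against 27.3%. All were searched on both strands.

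The comparison of genotypes addressed whether polymerase at these regions moved with the loss of Parp14. In the 337 shared far intervals the median ratio of Parp14+/+ to Parp14-/- heights was 0.833 (95% interval of the median 0.800 to 0.864). That interval treats the 337 as independent, which neighbours overlapping a single interval of another library are not. It describes the spread among intervals and holds no error between libraries. The ratio was below 0.7, the study's limit for higher signal in the knockout, in 95 (28.2%, against 19.5% of all 5151 shared wild-type intervals) and above 1.4 in 21 (6.23% against 10.6%). Whether a higher value came from more cells or from more polymerase per cell cannot be told apart. The knockout value was the higher one more often, both here and to a lesser degree in the whole set. However, the height of another library is that of the whole interval it called, and its highest point can lie outside the wild-type interval. The value of the other library is then larger than that within the wild-type interval. The points of all 3 other libraries lay inside the wild-type interval at 218 of the 337 (64.7%). In those 218 the median ratio was 0.894 (0.850 to 0.938), with 47 below 0.7 (21.6%, against 12.9% of all 3447 such intervals) and 19 above 1.4 (8.72% against 12.8%). Near listed genes the corresponding 3229 intervals had a median of 1.00, with 12.4% below 0.7. In the remaining 119 far intervals the median was 0.733.

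With PJ34 in both genotypes the ratio of Parp14+/+ to Parp14-/- had a median of 1.07 at the 337 and 1.05 at the 218, on the other side of 1 from the untreated pair. Of the 337, 76 were above 1.4 (22.6% against 24.7%) and 36 below 0.7 (10.7% against 7.71%). The pairs share libraries with each other, so their values are not independent. The treated ratio was above 1.4 in 48 of the 218 (22.0% against 23.9%) and below 0.7 in 23 (10.6% against 6.73%). The ratio of untreated to PJ34-treated Parp14+/+ cells had a median of 0.889 at the 337, with 24 above 1.4 (7.12% against 7.12%) and 65 below 0.7 (19.3% against 16.6%). At the 218 the median was 0.947, with 22 of the 218 above 1.4 (10.1% against 8.44%) and 24 below 0.7 (11.0% against 10.2%). In Parp14-/- cells the same ratio had a median of 1.14 at both sets. Of the 337, 89 were above 1.4 (26.4% against 22.1%) and 23 below 0.7 (6.82% against 6.1%), compared with 56 of the 218 above 1.4 (25.7% against 20.2%) and 15 below 0.7 (6.88% against 5.31%). Scaling each library by its median over all shared intervals moved the pooled medians to 0.909 for the untreated genotypes, 0.907 for the treated genotypes, 1.05 for Parp14+/+ and 1.05 for Parp14-/- cells, so the treated genotypes and PJ34 in Parp14+/+ cells changed side. The scaled counts below 0.7 and above 1.4 were 64 and 40 for the untreated genotypes (18.99% and 11.9%, against 14.5% and 17.4% of all). They were 80 and 42 for the treated genotypes (23.7% and 12.5%, against 16.4% and 13.6%), 40 and 53 for PJ34 in Parp14+/+ (11.9% and 15.7%, against 7.98% and 19.1%), and 36 and 66 for PJ34 in Parp14-/- (10.7% and 19.6%, against 9.94% and 14.7%).

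**Figure D3:**
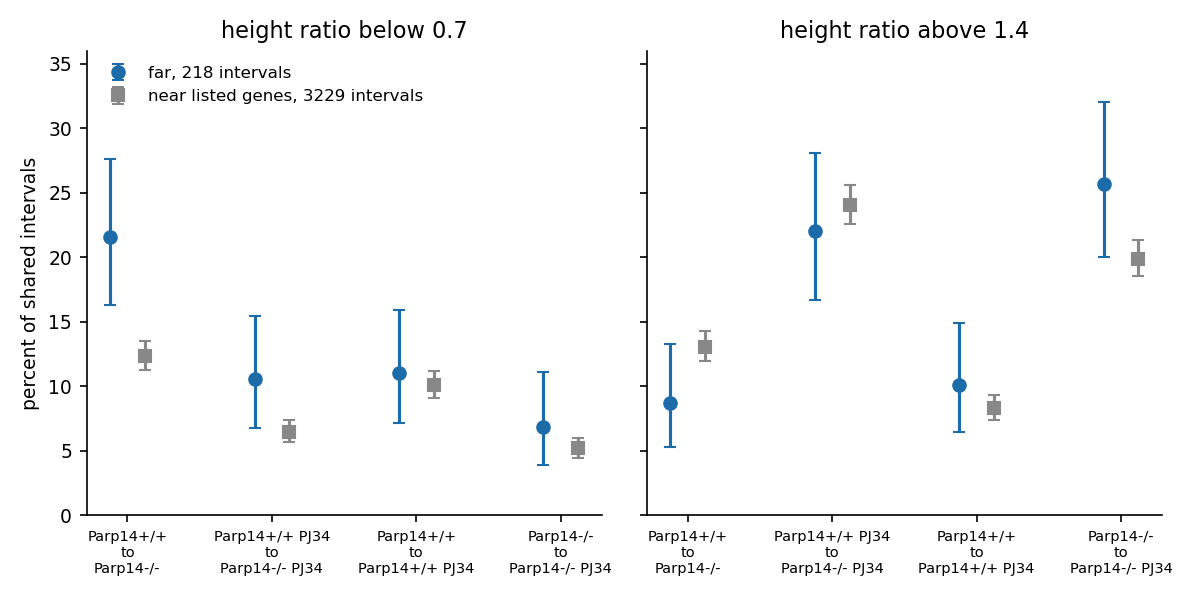
Percent of shared intervals with a height ratio below 0.7 (left) or above 1.4 (right) for the 4 pairs of libraries, over intervals with the highest points of all libraries inside the wild-type interval; error bars are 95% exact binomial intervals and cover counting error alone. For untreated Parp14+/+ to Parp14-/-, far intervals sit at 21.6% below 0.7 and those near listed genes at 12.4%.

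Few single intervals had a ratio whose counting interval left out 1. Each height is the highest point of its own library, and the counting intervals do not cover the choice of that point. Among the 74 shared far intervals with the Parp14-/- point inside and a height of at least 20 in either untreated library, 57 had the higher value in Parp14-/- and 17 in Parp14+/+. Over all 1121 shared wild-type intervals of this kind, the numbers were 624 and 455. The counting interval of the ratio lay below 1 at 8 of the 74 (10.8%, against 7.49% of the 1121) and above 1 at 0 (against 2.14%). One of those 8 had the highest wild-type value of all far intervals, level with a U1 interval. It lay at chr17:52264351-52309050, 292392 bp upstream of Satb1, a chromatin organizer of T cells, with no annotated gene under its 44700 bp. It reached 53 in Parp14+/+, 62 with PJ34, 84 in Parp14-/- and 56 in Parp14-/- with PJ34. The points of both treated libraries lay 6272 and 6304 bp from the wild-type one but within the interval. The untreated knockout stood above the other 3, with a ratio of Parp14+/+ to Parp14-/- of 0.631 (0.439 to 0.900). The lowest ratio among the 74 was that of chr3:130721551-130722900, 90488 bp upstream of Lef1, a transcription factor of the Wnt pathway, with heights of 6, 10, 20 and 20 and a ratio of 0.300 (0.0986 to 0.775).

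The 4 other lowest ratios by the rule rested on points that lay elsewhere. At chr17:51979801-51980700 the heights of 6, 75, 99 and 77 paired a short wild-type interval with intervals of the other libraries that span Satb1 itself, whose highest point in Parp14-/- lay 104176 bp away, past the 3′ end of that gene. The Parp14-/- point lay 45760 bp away at chr14:54792901-54800400, which overlaps T cell receptor alpha joining segments (8, 11, 45 and 32). It lay 21419 bp away at chr11:21076801-21084150 near Peli1 (11, 35, 43 and 35) and 4656 bp away at chr4:8929651-8933250 near Chd7 (6, 22, 31 and 27). These 4 ratios are therefore not comparisons at 1 place.

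The highest ratios all had both points inside. They were 1.81 (0.952 to 3.57) at chr18:38565451-38572200, 6428 bp upstream of Ndfip1, an adaptor of ubiquitin ligases, with heights of 29, 23, 16 and 16. The next was 1.57 (0.769 to 3.32) at chr5:53815801-53825550, with 22, 19, 14 and 10. The third was 1.53 (0.799 to 3.00) at chr15:9484051-9487500 upstream of Il7r, with 26, 29, 17 and 12. At all 3 the 2 wild-type libraries stood above the 2 knockout libraries. Those at Rbbp6, 1.44 (0.727 to 2.91) with 23, 18, 16 and 14, and at the U3 gene given above, 1.41, followed. All 5 counting intervals of the untreated pair included 1. With PJ34 the genotype ratio at the interval upstream of Il7r was 2.42 (1.20 to 5.20).

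Far intervals were joined into clusters along the chromosomes, with no comparison to other intervals. With at most 50 kb between neighbours, 500 of the 857 fell into 165 clusters, 223 of the 337 shared (66.2%) and 277 of the 520 not shared (53.3%), and 93 of the clusters were pairs. The largest held 15 members along 160950 bp of Usp34 (chr11:23216101-23377050). Its heights were low, from 5 to 10 in wild-type cells, and only 2 of the 15 were shared. All 15 overlapped that annotated gene. The second held 13 members along chr8:96950551-97043850, over or beside genes named Nlrc5 and 9330175E14Rik. GENCODE vM1 gives both the type of long intergenic noncoding RNA. That type was not checked against other annotation, so whether this cluster lies over a protein-coding gene is not settled here. Wild-type heights were 7 to 14 in this cluster, and 12 of its 13 members were shared. There single Parp14-/- intervals spanned several wild-type ones, so that a Parp14-/- height of 16 recurred at 5 members.

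The third cluster lay upstream of Maml2, a coactivator of Notch signalling, with 12 members along chr9:13222051-13408650. It held the longest far interval, chr9:13226251-13313700 with 87450 bp, which overlapped the annotated protein-coding gene Phxr4. This interval reached 38 in Parp14+/+, 14 with PJ34, 27 in Parp14-/- and 22 in Parp14-/- with PJ34. The highest points of the other 3 libraries lay within 48 bp of the wild-type one. The ratio of untreated to treated Parp14+/+ cells was 2.71 (1.44 to 5.42) there, and the other members of the cluster had wild-type heights of 4 to 14. The fourth cluster, chr5:53783551-53897550, had 8 members, with wild-type heights of 9 to 29 and no protein-coding gene annotated under them.

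The fifth cluster surrounded Il7r, which encodes the receptor for interleukin 7, and so bears on the genes of T cells near far intervals. Of a list of 202 T cell genes, 183 had a row in the table, and 91 far intervals (10.6%) lay within 100 kb of one of 48 such genes, against 5.53% of all wild-type intervals. Of the 91, 49 were shared and 42 were not. The T cell gene was not always the nearest listed gene to these intervals. By role, 28 lay near 16 of the 55 transcription factors in the table, 18 near 11 of the 32 signalling regulators, 16 near 10 of the 35 T cell receptor and surface genes, 16 near 4 of the 30 receptors and 13 near 7 of the 31 cytokines and effectors. Il7r had 8 far intervals, and Satb1 and Egr2, a transcription factor induced by T cell receptor signals, 4 each.

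**Figure D4:**
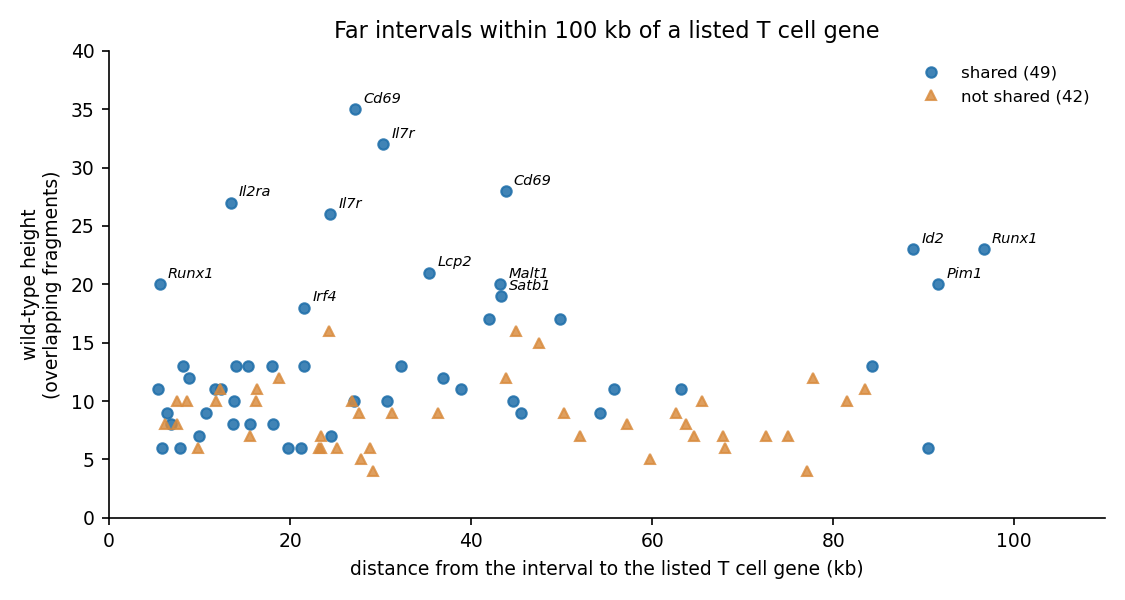
Wild-type height (overlapping fragments) of the 91 far intervals within 100 kb of a listed T cell gene against their distance from that gene (kb); circles are shared and triangles not shared. Named points have a height of at least 18, and all of them are shared.

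Sequences of 200 bases centred on the highest wild-type point show the sequence under 5 shared intervals near or beyond these genes. The capitals mark TTCNNNGAA, TTCNNNNGAA or AGATAA on either strand, and all are given on the + strand of NCBIM37.
Downstream of Gata3, chr2:9508189-9508388: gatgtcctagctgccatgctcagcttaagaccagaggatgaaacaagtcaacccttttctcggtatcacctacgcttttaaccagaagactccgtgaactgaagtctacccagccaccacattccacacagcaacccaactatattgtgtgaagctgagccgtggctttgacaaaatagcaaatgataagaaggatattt
Upstream of Satb1, chr17:52293949-52294148: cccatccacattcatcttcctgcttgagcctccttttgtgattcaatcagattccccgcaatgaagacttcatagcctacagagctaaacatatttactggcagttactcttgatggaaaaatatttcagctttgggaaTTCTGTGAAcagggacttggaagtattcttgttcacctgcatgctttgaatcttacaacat
Downstream of Cd69, chr6:129187037-129187236: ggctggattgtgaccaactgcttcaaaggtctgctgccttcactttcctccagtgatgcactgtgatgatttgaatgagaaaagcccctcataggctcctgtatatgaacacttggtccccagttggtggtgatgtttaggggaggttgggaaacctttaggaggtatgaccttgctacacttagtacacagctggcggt
Upstream of Il7r, chr15:9485885-9486084: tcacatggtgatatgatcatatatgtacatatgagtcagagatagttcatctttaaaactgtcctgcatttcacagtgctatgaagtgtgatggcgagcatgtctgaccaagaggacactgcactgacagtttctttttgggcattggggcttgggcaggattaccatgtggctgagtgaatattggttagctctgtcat
Upstream of Id2, chr12:25875357-25875556: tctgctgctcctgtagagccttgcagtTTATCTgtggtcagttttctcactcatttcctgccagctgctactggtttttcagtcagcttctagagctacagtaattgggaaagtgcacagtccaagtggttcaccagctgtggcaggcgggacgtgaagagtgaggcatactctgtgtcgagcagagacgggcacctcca

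The STAT letters stood once in the window upstream of Satb1 and the GATA letters once in that upstream of Id2, and no other window of the 5 held any. None of the 5 windows overlapped an annotated exon.

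Il7r had intervals on both sides. Upstream, chr15:9489901-9508350 lay 30287 bp from the gene and overlapped the annotated protein-coding gene Spef2. It reached 32, 26, 31 and 25, in the order Parp14+/+, Parp14+/+ with PJ34, Parp14-/- and Parp14-/- with PJ34. Its neighbour at 24437 bp reached 26, 29, 17 and 12, as above. The order of the libraries differed between these adjacent intervals, but this difference was not tested. Their ratios of Parp14+/+ to Parp14-/- were 1.03 (0.610 to 1.75) and 1.53 (0.799 to 3.00), with counting intervals that overlap. At chr15:9509401-9521250, which reached 17, 29, 31 and 18, the Parp14-/- point lay 10656 bp away within the neighbouring interval. Downstream, chr15:9421801-9430500 reached 11, 13, 7 and 6. The gene itself had table values of 47, 42, 62 and 34.

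Gata3 encodes the transcription factor that directs Th2 differentiation. The third longest shared far interval, chr2:9465601-9516150 with 50550 bp, lay 262554 bp downstream of it, beyond the 100-kb limit, and reached 30, 36, 44 and 44. This interval overlapped the annotated genes Gm13218, a processed transcript, and Gm13220, a pseudogene. The nearest listed gene, which had no name, was 19848 bp away. The highest points of all 4 libraries lay within 384 bp of the wild-type one. The ratio of Parp14+/+ to Parp14-/- was 0.682 (0.414 to 1.11).

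**Figure D5:**
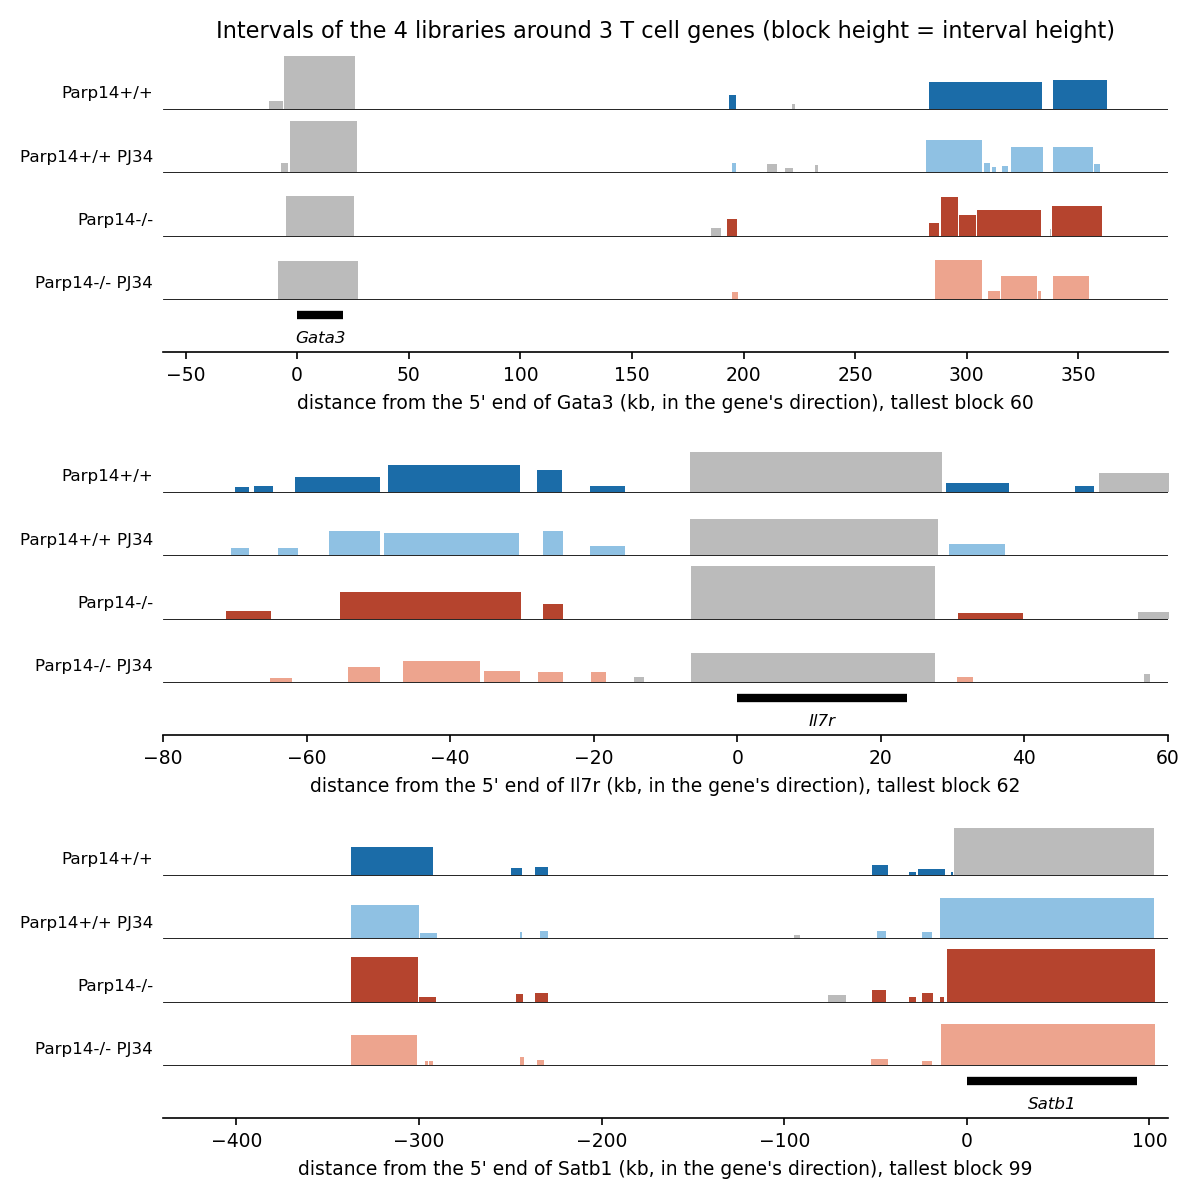
Intervals of the 4 libraries around Gata3, Il7r and Satb1, plotted by distance from the gene's 5′ end (kb, in the direction of the gene), with the height of each block proportional to the interval's height within that panel. Coloured blocks overlap a wild-type far interval and grey ones do not. The block 292392 bp upstream of Satb1 and the one 262554 bp downstream of Gata3 appear in every library, and the coloured blocks over Satb1 itself show intervals that reach from the gene to a short wild-type far interval.

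Other tall intervals lay near genes of T cell activation. Cd69 encodes an early activation marker, and chr6:129174151-129190200, which lies 27142 bp downstream of it over a long noncoding RNA gene, reached 35, 47, 41 and 45. Wild-type cells were lowest there, but the ratio of Parp14+/+ to Parp14-/- of 0.854 (0.528 to 1.37) included 1. The adjoining chr6:129158101-129173550 had 28 in wild-type cells, and the other 3 libraries had their highest points outside it.

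Il2ra encodes the alpha chain of the interleukin 2 receptor. The interval 13426 bp upstream of it, chr2:11537701-11551050, reached 27, 23, 36 and 18, with the points of all libraries within 160 bp of the wild-type one. This interval overlapped the annotated protein-coding genes Gm17355 and Gm17490, and its nearest listed gene was Rbm17, at 12874 bp. The 2 untreated libraries were the higher ones, and the ratio of untreated to treated cells was 2.00 (1.11 to 3.74) in Parp14-/- and 1.17 in Parp14+/+. The interval upstream of Lcp2, an adaptor of T cell receptor signalling, showed 21, 13, 16 and 9, also higher in both untreated libraries. That toward Pim1, a kinase induced by cytokines, ran the other way with 20, 22, 24 and 35. The nearest listed gene to the latter was Fgd2, at 13102 bp, against 91556 bp to Pim1.

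At Id2, a regulator of lymphocyte differentiation, the interval 88817 bp upstream reached 23, 29, 25 and 26. Runx1 had a pair, chr16:92703151-92781000 with 20, 23, 27 and 17 and chr16:92794201-92827350 with 23, 21, 21 and 16, both overlapping its annotated gene with the wild-type point in an intron. At the first, the points of both treated libraries lay outside it, and their highest points within it were 18 and 14. The interval 21554 bp downstream of Irf4, a factor needed by Th2 cells, lay nearer to Exoc2, at 16436 bp. It had 18, 47, 22 and 14, and the value of 47 in Parp14+/+ with PJ34 belonged to a point 26752 bp away. The highest point of that library inside the wild-type interval was 11. Malt1, a protease of antigen receptor signalling, had 20, 18, 16 and 17 at 43200 bp, in an interval that overlapped the annotated protein-coding gene Alpk2. The interval of Satb1 at 43242 bp had 19, 13, 22 and 12. At the latter both treated libraries were below their untreated counterparts.

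The tallest not shared interval had no partner in the other libraries. At chr9:14725051-14727000, 16674 bp upstream of Folr4, which encodes a member of the folate receptor family, Parp14+/+ reached 41 and no other library had an interval. Its sequence at the highest point is shown because it is made of short repeats.
Wild-type interval near Folr4, chr9:14725853-14726052, + strand of NCBIM37: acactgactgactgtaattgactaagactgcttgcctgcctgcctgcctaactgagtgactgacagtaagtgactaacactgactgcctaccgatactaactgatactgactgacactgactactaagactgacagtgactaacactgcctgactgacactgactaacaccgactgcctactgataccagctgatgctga

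In the window reaching 150 bases to each side of this point, ACTGA occurred 18 times on either strand, against a median of 1 and at most 7 in the other windows. These letters were chosen after the sequence had been seen, and the part of the repeat in the height was not tested. The next tallest not shared intervals were lower. An interval 215410 bp upstream of Btg1, an antiproliferative gene, reached 22 in both Parp14+/+ and Parp14-/- and was missing from both treated libraries. One near U2af1, a splicing factor gene, had 20 and 15 and was missing from both knockout libraries. The intervals in Dock2 with 19 and upstream of Lcp2 with 18 were in wild-type cells alone, as was one beyond Foxo1 with 17. The longest not shared interval, 19500 bp within Usp34, had 8 in Parp14+/+, 8 with PJ34 and 7 in Parp14-/- with PJ34.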

How the data were processed

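Phosphorylated RNA polymerase II was measured by ChIP-seq in 4 Th2 libraries, 1 per condition, beside an Input mixture. Per the study's methods, the authors aligned 36-base reads (ELAND, mm9), dropped duplicate reads, cut all libraries to equal uniquely mapped alignments and called SICER intervals per library against Input. The deposited tracks give intervals and, as a signal, the number of overlapping fragments at the highest point, while the deposited gene table gives a signal (average height per gene) and, as another measure, marks of interval presence. Since all libraries were cut to the same number of alignments, the heights themselves set the precision.

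The analysis used Python 3.11.15, pandas 2.3.3 and scipy 1.17.1, was tested on simulated data, and took coordinates (counted from 1) and genes from NCBIM37 with GENCODE vM1. Rows of the gene table without a name were placed by coordinates where a gene shared at least 50% of the joint span. Ratios take heights as counts, with exact binomial 95% intervals. Intervals of a share are exact binomial (Clopper-Pearson), and these and the ratio intervals cover counting error alone. Intervals of a median come from ranks over the genomic intervals, taken as independent, and do not cover error between libraries. Because each condition had 1 library, no test was made and no p-value is given.

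The regions named were the 10 tallest of each group, the 5 longest of each, the 5 largest clusters, the 5 highest and 5 lowest ratios of Parp14+/+ to Parp14-/- at a height of at least 20 in either library, the 15 tallest within 100 kb of a T cell gene, and 3 on each side of the 5 kb limit. The small RNA genes and the alternatives with points within 1 kb or beyond every annotated gene were chosen after the values were seen. The regions and gene lists were chosen with earlier results of these data known. Distance, overlap, height, scaling, cluster gap and gene distance were varied. The 8 value columns of the gene table and the 8 tracks that belong to no sample here were not used. A T cell gene and a sequence are not reported here.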

Additional observations from a re-analysis of the deposited data

Results flagged for a closer look

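A ratio of the design lay above 1.4 in one pair of libraries and below 0.7 in the other at 30 of the 337 shared far intervals (8.90%, against 5.90% of all shared wild-type intervals), and 5 of the 30 are among the regions chosen by the rule for naming. With 1 library per condition the difference was not tested. The interval chr9:13226251-13313700, upstream of Maml2 and over Phxr4, had a ratio of Parp14+/+ to Parp14-/- of 1.41 without PJ34 and 0.636 with it. The highest points of all libraries lay inside this interval.

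At the other 4 named ones, at least 1 library had its highest point outside the wild-type interval. The interval near Irf4 had a ratio of untreated to treated cells of 0.383 in Parp14+/+ and 1.57 in Parp14-/-. The one at chr15:9509401-9521250, upstream of Il7r, had genotype ratios of 0.548 untreated and 1.61 treated, with PJ34 ratios of 0.586 and 1.72. A pair in the cluster on chromosome 8 moved the same way. The member starting at 96965401 had genotype ratios of 0.50 and 1.44 and PJ34 ratios of 0.538 and 1.56, and the member starting at 96992701 had 0.625 and 1.5, then 0.667 and 1.60.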

How the results depend on the processing

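No paired analysis was possible because each condition had 1 library and the groups share only a single replicate number. For the same reason no library could be left out. Of 177 alternative values for the main counts, medians and lengths, 105 stayed within the set limits, 70 moved and 2 changed side of 1. Counts were held against the main counts without allowing for the number of intervals, so settings that leave fewer intervals lower them by construction. How many of the 70 moved for this reason was not counted, and no cause was tested. The counts below stand without the same counts over all wild-type intervals, so they describe the settings alone. Pairs are given as untreated genotypes, treated genotypes, PJ34 in Parp14+/+ and PJ34 in Parp14-/-.

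Beyond 10 kb the untreated genotypes had 13 ratios above 1.4. Beyond 20 kb there were 180 shared and 273 not shared intervals, with 9 ratios above 1.4 and 56 below 0.7 for the untreated genotypes, 35 above for the treated ones, a median of 0.912 with 15 above and 29 below for PJ34 in Parp14+/+, and 50 above and 7 below for PJ34 in Parp14-/-. Beyond 50 kb there were 93 and 153 intervals, and in the same order of pairs a median of 0.792 with 4 above and 34 below, 18 above and 16 below, 3 above and 14 below, and a median of 1.22 with 27 above and 6 below. An overlap of at least 50% gave a median length of 3450 bp for not shared intervals. A height of at least 10 left 206 shared and 144 not shared, and counting every annotated gene left 188 and 296.

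Scaling by library medians gave the untreated genotypes a median of 0.909 with 40 above, and the treated genotypes 0.907, a changed side, with 42 above and 80 below. It gave PJ34 in Parp14+/+ 1.05, also a changed side, with 53 above and 40 below, and PJ34 in Parp14-/- 1.05 with 36 below. Heights within the wild-type interval alone gave 0.882 with 58 below for the untreated genotypes, 0.938 with 32 below for PJ34 in Parp14+/+, and 15 below for PJ34 in Parp14-/-. Requiring a height of at least 20 gave 0.741 with 6 above and 42 below, 21 above and 14 below, 0.821 with 2 above and 22 below, and 1.22 with 28 above and 10 below. The untreated genotypes had 90 intervals under this setting.

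Among alternatives chosen after seeing the data, highest points within 1 kb gave 13 above and 23 below, 20 above and 14 below, a median of 1.00 with 12 above and 14 below, and 25 above and 9 below. Intervals beyond 5 kb of every annotated gene gave 59 below, 47 above and 16 below, 13 above and 42 below, and 57 above and 13 below. T cell genes were near 137 far intervals within 250 kb, and near 59 of those beyond 5 kb of every annotated gene.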
